A study of Mus musculus with 12 samples.

Results

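The lungs of 22-month-old C57BL/6J mice that had received anti-PD-1 together with anti-IL-21R were compared with those of age-matched mice that had received anti-PD-1 alone. The comparison used 6 of the 12 RNA sequencing libraries of the study, 3 of the combination group and 3 of the anti-PD-1 group, taken by their labelled treatment. All mice, controls included, carried a tumour of the MO4 melanoma line under the skin, and the tissue was the whole lung, so the RNA comes from every cell type of the organ. Anti-PD-1 was given into the peritoneum, and the labels give days 3, 7 and 11 as the injection days of anti-PD-1 and of the control antibody. A further group of 22-month-old mice had received a control antibody in place of anti-PD-1, and its 3 libraries are used only to show levels. The remaining 3 libraries came from 2-month-old mice given anti-PD-1 and entered only the shared estimate of the spread. No group received anti-IL-21R without anti-PD-1, so the effect of the second antibody was measured only on top of the first.

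IL-21 is a cytokine made mostly by CD4 T cells, above all by follicular helper T cells, which help B cells make antibody. Its receptor pairs the IL-21R chain with the common gamma chain, signals through the kinases JAK1 and JAK3, and activates chiefly the transcription factor STAT3. PD-1 is a brake on activated T cells, and blocking it releases them, with inflammation of organs outside the tumour as a known side effect. The comparison asks which lung transcripts differ when the IL-21 receptor is blocked during anti-PD-1 treatment in old age.

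Adding anti-IL-21R went with higher levels of chemokines that attract neutrophils, of neutrophil genes, of inflammatory cytokines and of the metallothioneins. It also went with lower levels of genes of blood and lymphatic endothelium, of some interstitial macrophage genes and of the B cell chemokine Cxcl13. The table lists 49585 genes, of which 18556 passed the filter on low counts. A gene is called where its adjusted p was under 0.05 (edgeR quasi-likelihood test, two-sided, Benjamini-Hochberg over all genes tested). By that rule 1674 genes were called (9.02% of those tested), 866 higher (4.67%) and 808 lower (4.35%) with anti-IL-21R. These shares of higher and lower genes are the background for the counts of called list members below. Of the higher genes 150 (0.808% of those tested) and of the lower 133 (0.717%) differed by at least 2-fold. Fold changes below are log2 values of combination over anti-PD-1 with their SE, and levels are CPM, read counts relative to a library size scaled by trimmed mean of M values (TMM). The 3 libraries of one group lay wholly outside the range of the other for 32.2% of genes tested. Most genes named below were chosen because they were called, and some also because their groups did not overlap. Separate ranges of such genes are therefore a description and no further support. The labels do not say whether each library came from a mouse of its own, so p-values measure the spread between these samples, which may be in part technical.

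**Figure D1:**
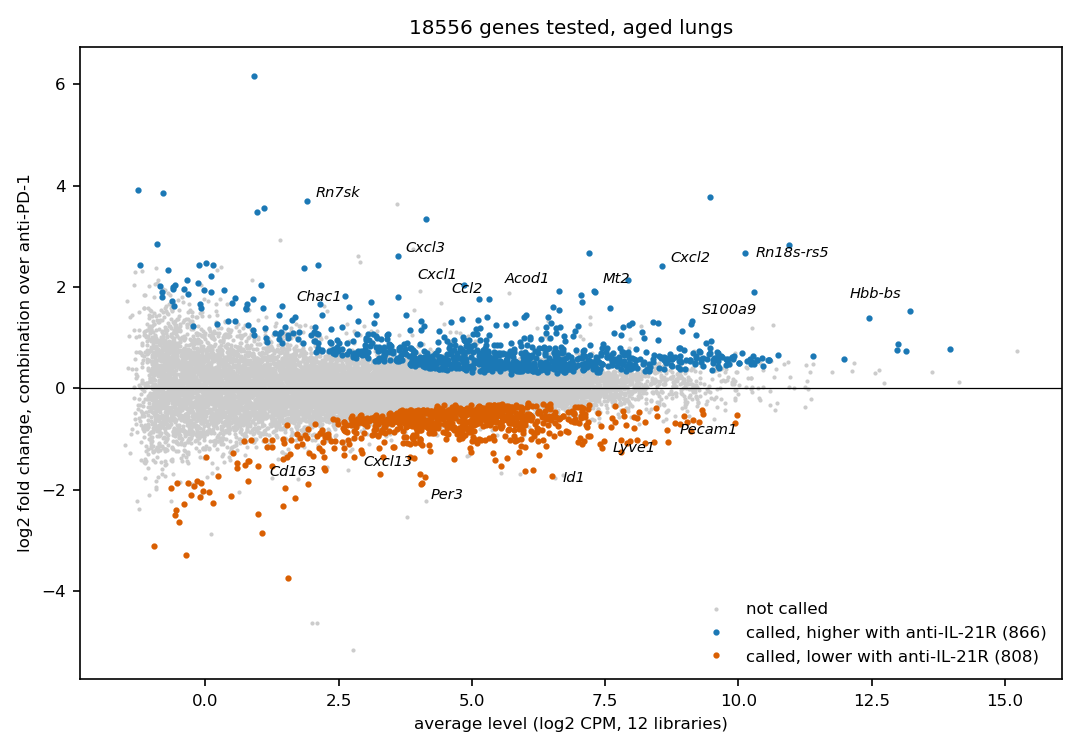
Each point is 1 of 18556 genes. The horizontal axis is its average level over 12 libraries (log2 CPM) and the vertical axis the log2 fold change of the combination group over the anti-PD-1 group. The 866 called higher genes (blue) and 808 called lower genes (orange) lie across the whole range of levels, with Cxcl2, Cxcl1 and Mt2 among the higher and Cxcl13, Cd163 and Id1 among the lower.

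The split between higher and lower depends on the scaling. With library totals in place of TMM, 361 genes were called higher and 2677 lower, so that 11.9% of calls were higher in place of 51.7%, and the median fold change over all genes moved from -0.00863 to -0.206. All 1674 called genes kept their direction when any 1 of the 6 libraries was left out, but the number called did not stay. It was 584, 641 and 954 without the first, second or the third anti-PD-1 library, and 260 without the second combination library.

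The 6 libraries held between 16021877 and 22058620 counts each. The make-up of the combination libraries also differed in ways that touch the results. Mitochondrially encoded transcripts took 11.5, 14.9 and 13.7% of counts there and 7.88, 8.31 and 11.9% in the anti-PD-1 libraries. Haemoglobin transcripts took 2.62, 3.98 and 1.76% against 1.11, 1.06 and 1.30%. The ribosomal RNA transcript Rn18s-rs5 stood at 695, 3104 and 4799.6 CPM against 495, 449.6 and 401, and Rn7sk, a small nuclear RNA that poly(A) selection should remove, at 2.53, 8.57 and 22.2 against 0.882, 0.754 and 0.898. For Rn18s-rs5, Rn7sk and the mitochondrial share the second and the third combination libraries stood above the other 4. This was not so for the haemoglobin share. Without these 2 libraries, the combination group was 1 library, assumed to vary like the other groups, and 7 genes were called, all higher. Called genes were also split by transcript length: the median exon length was 2352 bases for those higher, 6007 for those lower and 3664.5 for all genes tested. With a trend on length and GC content removed, 1287 genes were called, 736 higher and 551 lower.

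**Figure D2:**
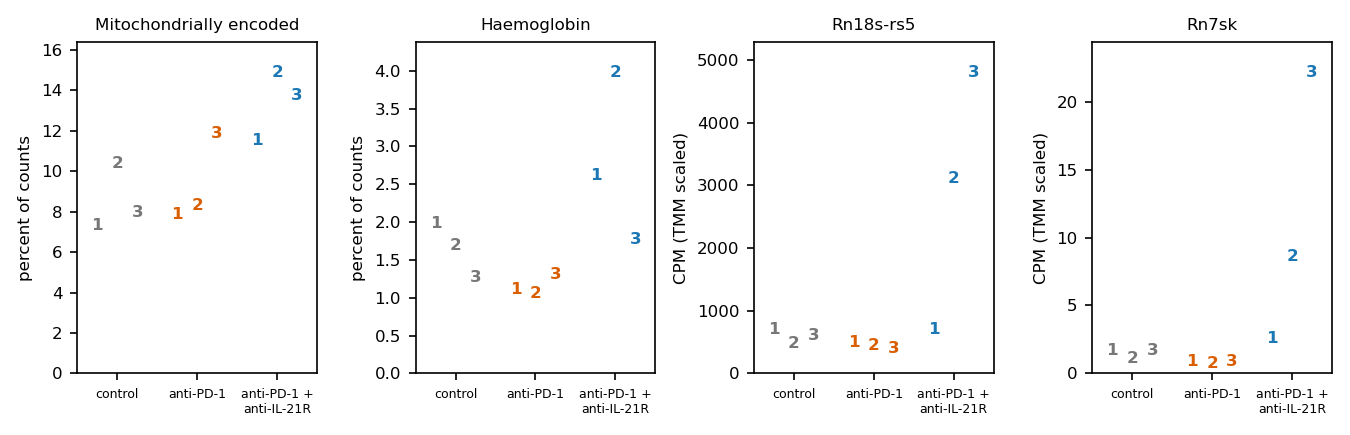
Each number is 1 library of 22-month-old mice, labelled by its replicate number and placed by group on the horizontal axis. The panels show the percent of counts from mitochondrially encoded and haemoglobin genes and the CPM of Rn18s-rs5 and Rn7sk. Combination libraries 2 and 3 stand above all others for Rn18s-rs5 (3104 and 4800 CPM) and Rn7sk (8.57 and 22.2 CPM).

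Lung tissue was recognisable in all 6 libraries. Surfactant and other type 2 alveolar genes summed to 17199 to 19195 CPM in the anti-PD-1 and 18159 to 24213 CPM in the combination libraries, and none of the 15 was called. The surfactant protein gene Sftpc stood at 10249, 9465 and 9912 CPM against 14959, 11389 and 10522. Of 9 pigment cell genes, 5 were below the filter: Tyr, Tyrp1, Dct, Slc45a2 and Sox10 had at most 3, 4, 5, 1 and 8 reads in any of the 6 libraries. The other 4 were tested and none was called: Pmel had 38 to 71 reads, Mlana 37 to 60, Mitf 207 to 340 and Gpnmb, which macrophages also express, 950 to 2449.

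The transcript of the blocked receptor was not called. Il21r (chromosome 7, 125603429 to 125633570, plus strand, mm10) stood at 19.5, 17.8 and 28.4 CPM in the 3 anti-PD-1 libraries and 22.1, 26.0 and 17.0 in the combination libraries, and the ranges overlapped (log2 fold change -0.01 ± 0.22, 95% interval -0.48 to 0.45, edgeR adjusted p 0.978). An antibody blocks the protein, so this level does not check the treatment. Il21, the cytokine itself, had 15, 5 and 11 reads in the anti-PD-1 libraries and 1, 0 and 2 in the combination libraries. These counts do not overlap but are too low for the filter; tested without it over 31441 genes, Il21 had a fold change of -2.83 ± 0.96 and was not called (edgeR adjusted p 0.0769). Il2rg, the common gamma chain, differed by -0.18 ± 0.15 (95% interval -0.50 to 0.15, edgeR adjusted p 0.494) and Stat3 by 0.17 ± 0.11 (95% interval -0.06 to 0.40, edgeR adjusted p 0.342).

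Of 18 tested genes of the IL-21 receptor and common gamma chain list, 2 fell and none rose (median 0.03), beside 4.35% and 4.67% of all genes tested. Jak3, the kinase bound to the common gamma chain, stood at 52.2, 45.1 and 54.1 CPM with anti-PD-1 and 35.9, 38.9 and 34.6 in combination (-0.47 ± 0.13, edgeR adjusted p 0.0449). Il15ra, the private chain of the IL-15 receptor, went from 10.3, 12.9 and 12.3 to 5.96, 7.23 and 6.20 CPM (-0.87 ± 0.21, edgeR adjusted p 0.0243). Neither pair of ranges overlapped, yet both calls were fragile. Jak3 missed the threshold without any 1 of the 6 libraries (edgeR adjusted p up to 0.125) and with the length and GC trend removed (0.0750). Il15ra missed it without any 1 library except the first anti-PD-1 library (edgeR adjusted p up to 0.0780).

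Among 21 genes that respond to STAT3 or IL-21, 3 rose and 1 fell, beside 4.67% and 4.35% of all genes tested. The median of the list was 0.19, or -0.02 under library totals and 0.11 without the second combination library. Pim1, a survival kinase induced by STAT signalling, rose from 144, 155 and 152 to 353, 407 and 347 CPM (1.30 ± 0.21, edgeR adjusted p 0.00541). Bcl3, an atypical member of the inhibitor of NF-κB family, rose from 23.2, 20.7 and 23.8 to 39.4, 44.8 and 38 CPM (0.85 ± 0.12, edgeR adjusted p 0.00338). Both genes had every combination library above every anti-PD-1 library. Cd38, an enzyme of the cell surface that consumes NAD and marks activated lymphocytes and plasma cells, moved the other way, from 40.2, 41.5 and 41.3 to 25.7, 25.6 and 24.7 CPM (-0.69 ± 0.12, edgeR adjusted p 0.00788). These 3 calls held without any 1 library. The gene that encodes PD-1, Pdcd1, was at 2.94, 2.97 and 10.4 CPM with anti-PD-1 and 1.24, 2.81 and 2.77 in combination. Its groups did not overlap, the difference rested mainly on the third anti-PD-1 library, and it was not called (-1.26 ± 0.49, edgeR adjusted p 0.118; -0.39 without that library), although it was under library totals (edgeR adjusted p 0.0486). The ligand gene Cd274 differed by 0.20 ± 0.32 (95% interval -0.51 to 0.91, edgeR adjusted p 0.736).

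Chemokines that attract neutrophils rose, 3 of them with log2 fold changes above 2. These genes, Cxcl1, Cxcl2 and Cxcl3, encode ligands that bind the receptor CXCR2 on neutrophils and belong to the chemokine cluster of chromosome 5. Their transcription is known to be driven by NF-κB, so the stretch from 120 to 21 bases before each RefSeq start is shown on the gene's plus strand (RefSeq, GRCm38.p6), with every match on either strand to a κB motif (GGG, 2 bases of any kind, then TTTCC) in capitals. The regions are chr5:90891125-90891224, chr5:90903779-90903878 and chr5:90785981-90786080 in the order of the lines.
Cxcl1: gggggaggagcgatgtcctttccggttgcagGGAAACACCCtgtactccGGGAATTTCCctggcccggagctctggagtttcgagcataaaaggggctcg
Cxcl2: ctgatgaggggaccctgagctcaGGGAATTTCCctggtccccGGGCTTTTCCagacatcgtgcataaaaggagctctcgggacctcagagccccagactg
Cxcl3: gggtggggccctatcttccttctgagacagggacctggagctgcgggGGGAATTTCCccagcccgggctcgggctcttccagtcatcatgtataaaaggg
Cxcl1 and Cxcl2 hold 2 matches each and Cxcl3 holds 1, and all 3 share GGGAATTTCC. The motif occurs in 1.68% of the 12334 promoters matched to tested genes (66.5% of those tested, each 250 bases before to 50 after the start), in 2.40% of promoters of genes called higher and in 1.53% of those called lower. Of the 7 promoters of this chemokine list in the table, 3 hold it. A match is a string of letters and was not tested as a binding site.

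Cxcl1 (chromosome 5, 90891241 to 90893115, plus strand, mm10) stood at 8.90, 10.1 and 11.3 CPM with anti-PD-1 and at 23.9, 49.6 and 50.1 in combination, a log2 fold change of 2.03 ± 0.24 (edgeR adjusted p 0.00182). Cxcl2 (chromosome 5, 90903871 to 90905938, plus strand) went from 107, 143 and 127 to 601, 786 and 619 CPM (2.41 ± 0.26, edgeR adjusted p 0.00108). Cxcl3 (chromosome 5, 90786103 to 90789600, plus strand) went from 3.36, 2.26 and 5.09 to 24.4, 27.2 and 13.7 CPM (2.61 ± 0.40, edgeR adjusted p 0.00541). For each of these genes even the lowest combination library lay above the highest anti-PD-1 library, and the calls held without any 1 library. The 3 genes are closely related copies, and how reads that match more than 1 of them were counted is not given in the sources used here, so the split between them is uncertain. The cytokine gene Il17a, which acts upstream of such chemokines in epithelium and stroma, was also called (2.34 ± 0.63, edgeR adjusted p 0.0356) but at levels of only 0.210, 0.101 and 0.199 CPM against 0.675, 0.704 and 1.32, and it was lost without any 1 library except the first combination library (edgeR adjusted p up to 0.114). Together 4 of 9 genes of the list rose and none fell, with a median of 1.96 that was 1.18 without the second and the third combination libraries.

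**Figure D3:**
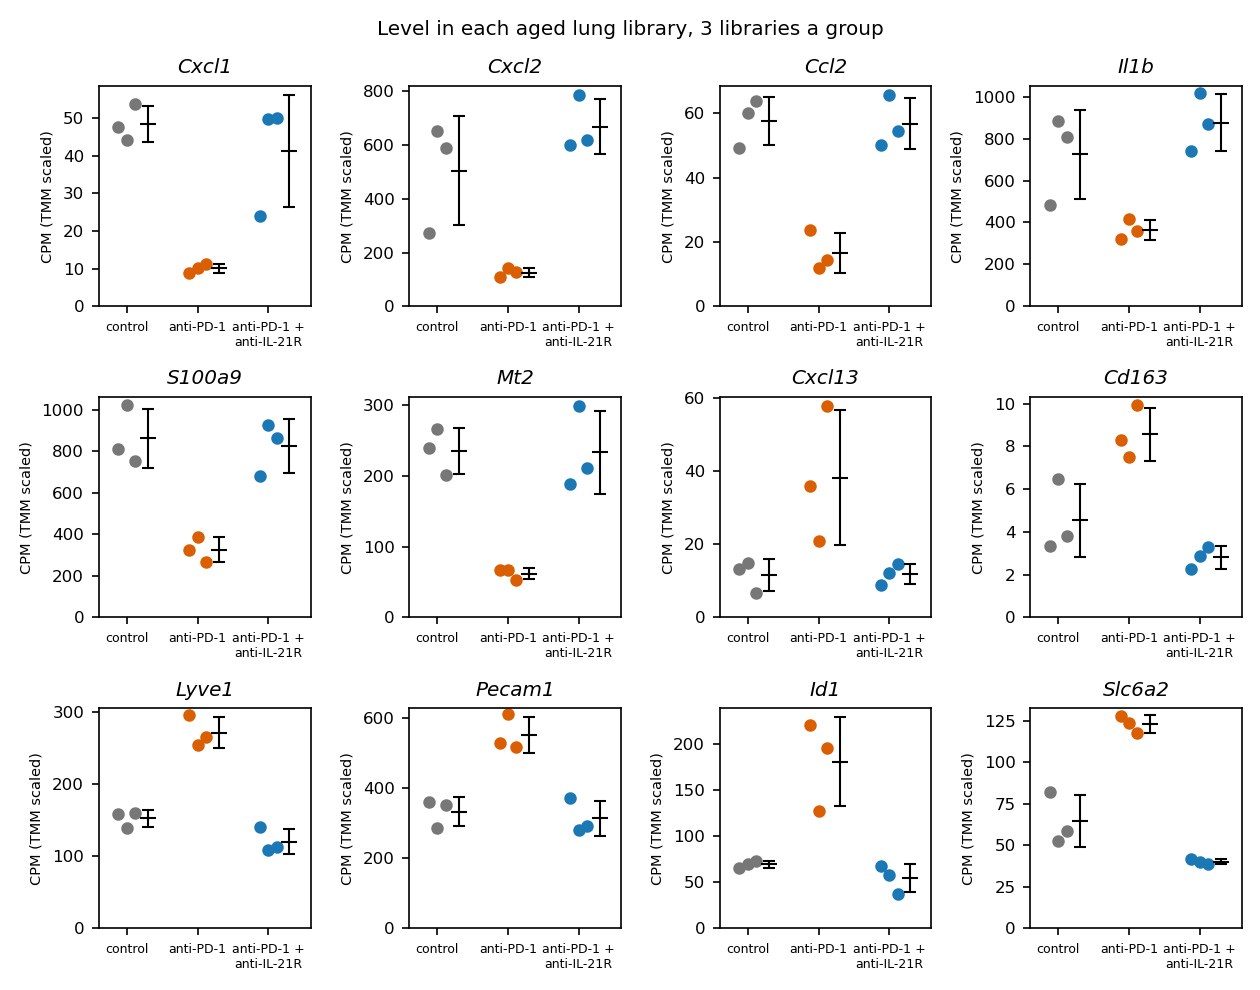
Each point is 1 library, with its level in CPM (TMM scaled) on the vertical axis of its panel and its group on the horizontal axis. Horizontal ticks with bars are the mean and SD of 3 libraries. For all 12 genes the anti-PD-1 and combination libraries do not overlap, and the control libraries lie nearer to the combination libraries for Cxcl1, Ccl2 and Mt2.

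Of 20 neutrophil genes, 7 rose and none fell (median 0.67, or 0.42 without the second and the third combination libraries). S100a9, a calcium-binding protein that is among the most abundant in neutrophils, went from 325, 386 and 269 to 679, 927 and 866 CPM (1.34 ± 0.21, edgeR adjusted p 0.00541), and its partner S100a8 rose by 1.30 ± 0.25 (edgeR adjusted p 0.0106). Il1r2, the decoy receptor for IL-1, went from 53.3, 92.9 and 48.6 to 216, 228 and 188 CPM (1.70 ± 0.24, edgeR adjusted p 0.00386). Clec4d, a C-type lectin of myeloid cells, went from 41.9, 55.2 and 44.0 to 91.5, 96.6 and 95.6 CPM (1.01 ± 0.15, edgeR adjusted p 0.00444). None of these 4 genes overlapped between groups. The S100a8 call was lost without the second combination library (edgeR adjusted p 0.0613), and the other 3 held without any 1 library. In whole lung RNA, more cells of a type and more RNA per cell cannot be told apart. The summed level of the list ran from 1265 to 1523 CPM in the anti-PD-1 and from 2479 to 3104 CPM in the combination libraries. The number of called members was 4, 4 and 3 without the first or the third anti-PD-1 or the second combination library, and 4 with no filter on low counts. In DESeq2, under library totals, with the length and GC trend removed and in the fit of only the 6 libraries, 1 member was called lower. Of the 20 fold changes 18 were positive and 2 negative. Members not called included Cxcr2 (0.24 ± 0.33, edgeR adjusted p 0.686), Ly6g (0.71 ± 0.49, edgeR adjusted p 0.384) and Fpr1 (-0.67 ± 0.22, edgeR adjusted p 0.0744).

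Inflammatory cytokines rose in 5 of 17 cases and fell in none (median 0.56, or 0.35 under library totals). Il1b, which encodes interleukin-1 beta, went from 319.7, 415 and 360.4 to 743, 1016 and 870.1 CPM (1.26 ± 0.21, edgeR adjusted p 0.00656). Il6, which signals through STAT3 as IL-21 does, went from 13.6, 19.0 and 14.1 to 33.2, 69.2 and 57.0 CPM (1.77 ± 0.37, edgeR adjusted p 0.0179). The stretch at the same distance from its start (chr5:30012994-30013093, plus strand, GRCm38.p6) holds 1 match to the motif shown for the chemokines.
Il6: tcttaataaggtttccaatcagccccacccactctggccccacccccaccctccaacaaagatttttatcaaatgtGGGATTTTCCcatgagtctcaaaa
Il6 was the single gene with the motif among the 14 promoters of this list. Osm, a further cytokine of the IL-6 family, went from 46.0, 54.3 and 47.8 to 128, 180.3 and 123 CPM (1.54 ± 0.31, edgeR adjusted p 0.0150). No range overlapped for Il1b, Il6 or Osm. Il1b held without any 1 library, while Il6 was lost without the first or the third anti-PD-1 or the second combination library (edgeR adjusted p up to 0.0776) and Osm without the first anti-PD-1 or the second combination library (up to 0.0708). Both were lost with no filter on low counts (0.0594 and 0.0540). The 5 calls became 1, 3, 1 and 3 without the first or second anti-PD-1 or the second or the third combination library, and 2 with no filter.

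Further genes called higher are described singly. Acod1, the enzyme that makes the antimicrobial metabolite itaconate, went from 34.5, 58.3 and 39.7 to 182, 155 and 165 CPM (1.92 ± 0.28, edgeR adjusted p 0.00451). Ccrl2, an atypical chemokine receptor, went from 52.6, 57.1 and 69.9 to 129, 126 and 126 CPM (1.09 ± 0.14, edgeR adjusted p 0.00192). Cxcr4, the receptor for CXCL12, went from 165, 192 and 209.8 to 336, 299 and 301 CPM (0.73 ± 0.12, edgeR adjusted p 0.00589). All combination libraries lay above all anti-PD-1 libraries for these genes. Tyrobp, the adaptor of activating receptors in myeloid and NK cells, rose by 0.77 ± 0.14 (edgeR adjusted p 0.00846) and Neurl3, a ubiquitin ligase, by 0.99 ± 0.12 (edgeR adjusted p 0.00182). These 5 calls held without any 1 library. Tyrobp was the only called gene among 16 of the NK cell receptor list (median -0.21), where 5 fold changes were positive and 11 negative.

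The CC chemokines split, with 3 of 20 genes of the list higher and 3 lower. Ccl2, which recruits monocytes through CCR2, went from 23.6, 11.9 and 14.4 to 50.1, 65.7 and 54.5 CPM (1.77 ± 0.21, edgeR adjusted p 0.00167). Ccl17, a ligand of CCR4 made by dendritic cells, went from 7.27, 6.13 and 6.98 to 17.7, 23 and 14.8 CPM (1.44 ± 0.21, edgeR adjusted p 0.00338). Ccl3, made by activated myeloid cells, went from 38.3, 27.5 and 38.2 to 77.7, 111 and 86.5 CPM (1.40 ± 0.28, edgeR adjusted p 0.0144). The groups were fully separate for these 3 genes. Ccl12, a mouse ligand of CCR2 from the same gene cluster as Ccl2, moved the opposite way, from 4.20, 3.42 and 5.14 to 1.29, 1.79 and 1.32 CPM (-1.53 ± 0.27, edgeR adjusted p 0.00656). Ccl8, made by resident macrophages, went from 34.6, 21.2 and 69.3 to 5.17, 14.2 and 14.9 CPM (-1.88 ± 0.52, edgeR adjusted p 0.0471). The lowest anti-PD-1 library for Ccl8 was still above the highest combination library, but the 3 anti-PD-1 values were widely spread. Ccl2, Ccl17 and Ccl12 held without any 1 library. Ccl3 was lost without the second anti-PD-1 or second combination library and with no filter (edgeR adjusted p up to 0.0708). Ccl8 was lost without any 1 library except the second anti-PD-1 library, in limma-voom, with no filter and in a fit of only the 6 libraries (adjusted p up to 0.152). The number lower was 1 without the first or the third anti-PD-1 library or without the second or the third combination library, and 1 in limma-voom or in the fit of only the 6 libraries, where 5 were higher.

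Cxcl13 (chromosome 5, 95956951 to 95961068, plus strand, mm10) attracts B cells and follicular helper T cells through CXCR5 and marks lymphoid aggregates in tissue. It stood at 36.0, 20.9 and 57.7 CPM with anti-PD-1, 8.88, 12 and 14.5 in combination and 13.3, 14.8 and 6.57 in the control libraries. The anti-PD-1 libraries were all above the rest, and the fold change was -1.70 ± 0.35 (edgeR adjusted p 0.0157). The call was lost without the second combination library (0.0709), with no filter on low counts (0.0599) and in a fit of only the 6 libraries (0.0576). The gene of its receptor, Cxcr5, overlapped between groups at 20.9, 21.2 and 21.7 CPM against 16.4, 25.6 and 17.5 (-0.10 ± 0.21, 95% interval -0.55 to 0.35, edgeR adjusted p 0.802). Among 13 follicular helper T cell genes 2 fell and none rose (median -0.36). The median was -0.23 without the third anti-PD-1 library, -0.19 with the length and GC trend removed and -0.56 under library totals, where 6 members were called lower. Cd200, a membrane protein that restrains myeloid cells and is also made by endothelium, went from 134, 183 and 159 to 104, 105 and 105 CPM (-0.60 ± 0.12, edgeR adjusted p 0.00987), and P2rx7, an ATP-gated channel, from 21.3, 20.7 and 22.3 to 13.6, 12.3 and 15 (-0.65 ± 0.14, edgeR adjusted p 0.0144). Both were fully separate between groups. P2rx7 was lost without the second combination library (0.0708), which left 1 called member.

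Some markers of interstitial macrophages were among the lower genes. Of 18 monocyte and interstitial macrophage genes, 5 fell and none rose (median -0.31). That median was -0.52 and -0.08 without the second or the third anti-PD-1 library, -0.49 without the first combination library, -0.50 under library totals and -0.16 without the second and the third combination libraries. Of the 18 fold changes 7 were positive and 11 negative, from -1.61 to 0.67. The summed level of the list overlapped between groups, at 2440 to 3064 CPM in the anti-PD-1 and 2202 to 2658 CPM in the combination libraries. Cd163, a scavenger receptor for haemoglobin (chromosome 6, 124304656 to 124330527, plus strand, mm10), went from 8.27, 7.49 and 9.92 to 2.25, 2.88 and 3.30 CPM (-1.61 ± 0.26, edgeR adjusted p 0.00541). Folr2, a folate receptor of perivascular macrophages, went from 8.15, 5.58 and 7.68 to 1.69, 2.43 and 3.10 CPM (-1.58 ± 0.27, edgeR adjusted p 0.00656). Lyve1, a hyaluronan receptor of perivascular macrophages and of lymphatic endothelium, went from 295, 253 and 265 to 139.8, 108 and 112 CPM (-1.17 ± 0.12, edgeR adjusted p 0.000471). For each of these 3 genes every combination library was below every anti-PD-1 library, and the calls held without any 1 library. Mertk, a receptor for the uptake of dead cells, fell by 0.79 ± 0.18 on the log2 scale (edgeR adjusted p 0.0210), but missed the threshold without the first or the third anti-PD-1 or the second combination library (up to 0.104). The list's number lower was 8 without the second anti-PD-1 library and 3 without the third anti-PD-1 or the second combination library. None of 16 alveolar macrophage genes was called. Of 16 dendritic cell genes 2 rose and 2 fell (median -0.07), with 7 fold changes positive and 9 negative. Among those lower was Clec9a, a receptor of cross-presenting dendritic cells. It went from 20.1, 25.9 and 25.2 to 10.8, 11.6 and 11.4 CPM (-1.08 ± 0.22, edgeR adjusted p 0.0129, lost at 0.0629 without the second combination library).

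Of 20 genes of blood endothelium 8 fell and none rose, with a median of -0.62 against -0.00863 over all genes tested. Without the second and the third combination libraries that median was -0.38. Pecam1 (chromosome 11, 106654217 to 106750628, minus strand, mm10), which encodes the junction protein CD31, went from 528, 611 and 518 to 371, 279 and 292 CPM (-0.81 ± 0.14, edgeR adjusted p 0.00656). Tek, the receptor for angiopoietins, went from 233, 270.3 and 226 to 161, 89.7 and 88.8 CPM (-1.10 ± 0.22, edgeR adjusted p 0.0126). Vwf, the von Willebrand factor of endothelium and platelets, went from 743, 699 and 665 to 482, 427 and 465 CPM (-0.62 ± 0.12, edgeR adjusted p 0.0110). All 3 separated the groups completely. Tek and Vwf were lost without the second combination library (edgeR adjusted p 0.0708 and 0.0580), while Pecam1 held without any 1 library. The 8 calls became 4 without the first or second anti-PD-1 or the third combination library, 1 without the second combination library, and 16 under library totals. The list summed to 3974 to 4558 CPM in the anti-PD-1 and 2451 to 3199 CPM in the combination libraries.

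The VEGF and angiopoietin list had 8 of 15 genes lower and 1 higher (median -0.47). It shares members such as Flt1, Flt4 and Tek with the endothelial lists, so its counts are not separate from theirs. Flt1, a receptor for VEGF-A, VEGF-B and placental growth factor, went from 196, 209 and 188 to 144, 104 and 113 CPM (-0.71 ± 0.14, edgeR adjusted p 0.0118), and Flt4, the VEGF-C receptor of lymphatic endothelium, from 23.4, 23.6 and 20.7 to 13.9, 15.5 and 13.5 (-0.66 ± 0.14, edgeR adjusted p 0.0127). Vegfb was the 1 gene of the list that rose, from 17.7, 17.6 and 16.4 to 23.3, 27.9 and 24.9 CPM (0.56 ± 0.11, edgeR adjusted p 0.0109). Each of these 3 genes had separate ranges. Flt1 and Vegfb were lost without the second combination library (0.0664 and 0.0620), and Flt4 held without any 1 library. The number lower was 3, 5, 1 and 4 without the first or second anti-PD-1 or the second or the third combination library. In the lymphatic list 4 of 9 genes fell and 1 rose (median -0.60), with 2 lower without the first anti-PD-1 library. Prox1, the transcription factor that sets lymphatic identity, went from 6.59, 3.92 and 3.54 to 1.29, 2.24 and 1.85 CPM (-1.39 ± 0.30, edgeR adjusted p 0.0161), and the call was lost without the first anti-PD-1 library (0.0716).

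Besides Lyve1, described above with the macrophage genes, further lower genes with small adjusted p are given singly. Slc6a2, the noradrenaline transporter (chromosome 8, 92960079 to 93001667, plus strand, mm10), went from 128, 124 and 118 to 41.7, 40.0 and 38.8 CPM (-1.61 ± 0.14, edgeR adjusted p 0.000293), the smallest adjusted p of any lower gene that the naming rule could take. Acer2, a ceramidase of the Golgi, went from 215, 226 and 214 to 111, 99.1 and 94.2 CPM (-1.10 ± 0.11, edgeR adjusted p 0.000471). Id1, a target of BMP signalling, went from 221, 127 and 196 to 68.0, 58.0 and 37.9 CPM (-1.73 ± 0.21, edgeR adjusted p 0.00192). Tmem2, a hyaluronidase of the cell surface, went from 112, 128 and 112 to 53.0, 26.4 and 35.0 CPM (-1.62 ± 0.20, edgeR adjusted p 0.00192). In all 4 the lowest anti-PD-1 library was above the highest combination library. Sema6d, a semaphorin (-1.07 ± 0.13, edgeR adjusted p 0.00132), Jag2, a Notch ligand (-0.95 ± 0.12, edgeR adjusted p 0.00192), Itga6, a laminin receptor chain (-0.84 ± 0.10, edgeR adjusted p 0.00131), and Ptgs1, which encodes cyclooxygenase 1 (-0.70 ± 0.09, edgeR adjusted p 0.00192), were also lower. These 8 calls held without any 1 library. Rgs5, a marker of pericytes, was lower as well (-0.72 ± 0.15, edgeR adjusted p 0.0128, 0.0684 without the second combination library). Its list was split: of 16 pericyte and smooth muscle genes 2 rose and 2 fell (median -0.06), with 8 fold changes positive and 8 negative.

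**Figure D4:**
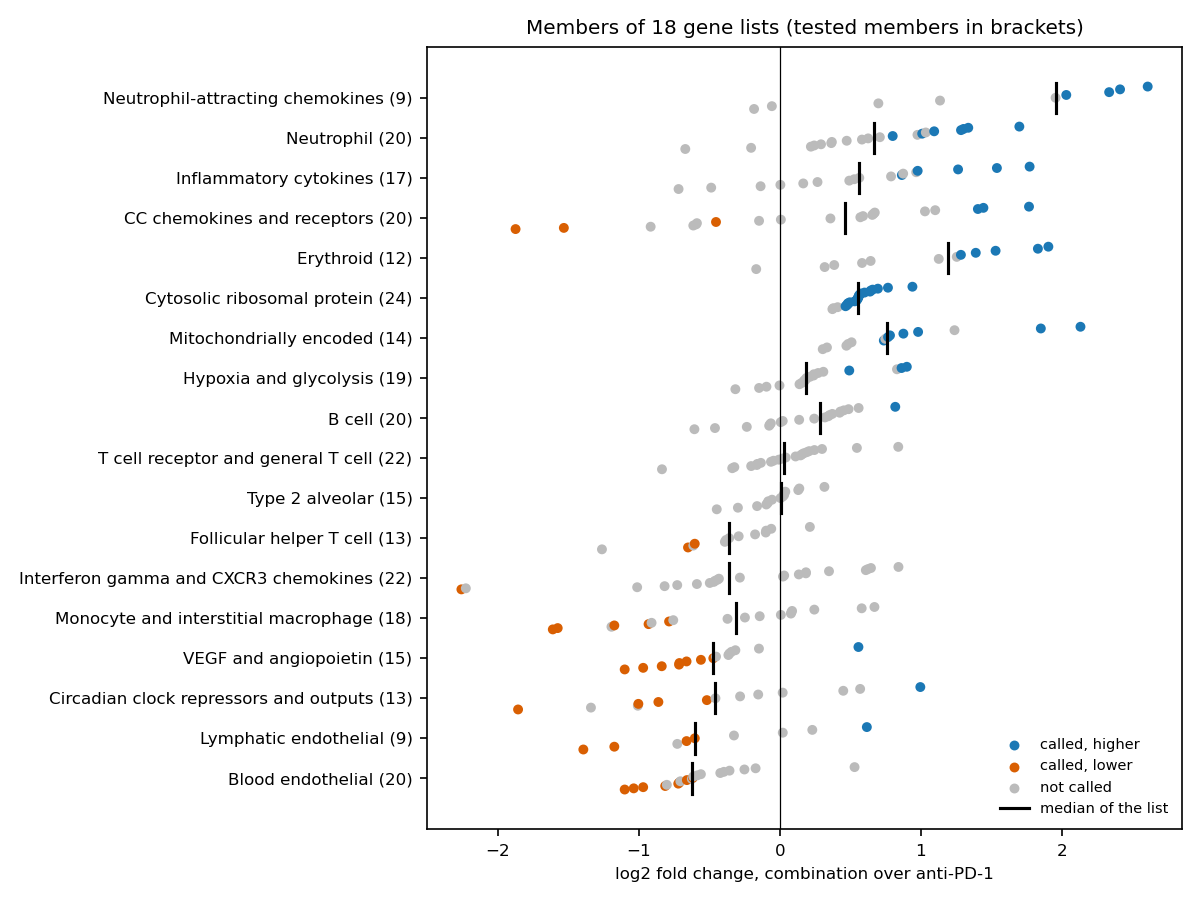
Each point is a tested member of the named list, placed by its log2 fold change of combination over anti-PD-1 on the horizontal axis. Blue members were called higher, orange lower and grey not called, and the black bar is the median of the list. Medians run from 1.96 for neutrophil-attracting chemokines to -0.62 for blood endothelium, with T cell and type 2 alveolar genes near 0.

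Among clock genes the repressors and outputs had 4 of 13 genes lower and 1 higher (median -0.46, or -0.26 without the second anti-PD-1 library). Per3, a repressor with a strong daily rhythm (chromosome 4, 151003652 to 151044665, minus strand, mm10), stood at 17.2, 53.7 and 31.3 CPM with anti-PD-1 and 9.73, 7.61 and 10.8 in combination (-1.86 ± 0.34, edgeR adjusted p 0.0103). The anti-PD-1 values spread widely, with the second library highest, and the 3 combination libraries were all below them. Its promoter is shown because it holds the D-box TTATGTAA, the element of the clock factors DBP, TEF and HLF, at 2 places, here from 220 to 141 bases before the start (chr4:151044806-151044885, minus strand, GRCm38.p6).
Per3: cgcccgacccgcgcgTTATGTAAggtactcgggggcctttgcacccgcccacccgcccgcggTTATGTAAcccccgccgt
That string occurs on either strand in 0.641% of the 12334 promoters and in 1 of the 11 of this list. The E-box CACGTG occurs in 4 of the same 11 and in 9.32% of all. Per2, a further repressor, went from 35.4, 60.4 and 50.5 to 26.4, 17.8 and 28.6 CPM (-1.0 ± 0.24, edgeR adjusted p 0.0231), and Cry2 from 64.4, 62.1 and 49.8 to 42.2, 39.7 and 41.3 (-0.52 ± 0.11, edgeR adjusted p 0.0144). Bhlhe40, which represses at E-boxes and is also induced by hypoxia and in activated immune cells, went from 163, 208 and 186 to 339.8, 361 and 409 CPM (1.00 ± 0.19, edgeR adjusted p 0.00993). Bhlhe40 held without any 1 library. Per3 was lost without the second combination library and in a fit of only the 6 libraries (edgeR adjusted p 0.0620 and 0.0596), Cry2 without the first or second anti-PD-1 or the second combination library (up to 0.0683), and Per2 without the second or the third anti-PD-1 or second combination library or with no filter (up to 0.109). The list's number lower was 1, 2 and 0 without the second or the third anti-PD-1 or the second combination library, 2 with no filter or with only the 6 libraries, and 7 under library totals. Of 7 clock activators 1 rose and none fell (median 0.07, range -0.70 to 0.90), and 0 to 3 were called higher when 1 library was left out. The labels give no hour of collection, so time of day and treatment cannot be told apart.

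Metallothioneins, which bind zinc and are induced by zinc, glucocorticoids and inflammation, rose. Mt2 (chromosome 8, 94172664 to 94173568, plus strand, mm10) went from 66.4, 67.0 and 52.7 to 189, 299 and 212 CPM (1.91 ± 0.19, edgeR adjusted p 0.000471), and its neighbour Mt1 from 115, 161 and 122 to 251, 419 and 256 (1.22 ± 0.23, edgeR adjusted p 0.00987). Neither gene overlapped between groups, and Mt2 was called even without the second and the third combination libraries (edgeR adjusted p 0.0226). Fkbp5, a co-chaperone of the glucocorticoid receptor that the hormone induces, moved the opposite way, from 43.7, 39.2 and 46.4 to 22.5, 25.7 and 22.6 CPM (-0.87 ± 0.17, edgeR adjusted p 0.0119). The list of glucocorticoid targets and metallothioneins had 2 of 15 genes higher and 3 lower, 1 lower without the second combination library.

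Some single genes of stress and metabolism were higher, while the lists they belong to were mixed. Chac1, an enzyme that degrades glutathione and a target of ATF4, went from 2.73, 2.61 and 2.34 to 6.41, 8.96 and 8.05 CPM (1.6 ± 0.18, edgeR adjusted p 0.00108), and Atf4 itself from 319, 316 and 288 to 469, 527 and 409 (0.61 ± 0.12, edgeR adjusted p 0.0130). Gadd45a, a stress and growth arrest gene, went from 24.6, 31.3 and 25.8 to 53.4, 72.2 and 69.5 CPM (1.26 ± 0.16, edgeR adjusted p 0.00192). Lmnb1, which encodes lamin B1 of the nuclear envelope, went from 48.6, 52.6 and 46.0 to 121, 140.0 and 131 CPM (1.41 ± 0.19, edgeR adjusted p 0.00313). Each of these genes had separate ranges. Hk2, the inducible hexokinase of glycolysis (0.86 ± 0.16, edgeR adjusted p 0.00817), Gfpt2, which feeds glucose into hexosamine synthesis (1.35 ± 0.18, edgeR adjusted p 0.00213), and Nr4a3, an immediate early nuclear receptor (0.95 ± 0.17, edgeR adjusted p 0.00826), also rose. Atf4 was lost without the second combination library (0.0708), and the other 6 held without any 1 library. Over all genes tested, 4.67% were called higher and 4.35% lower. By list, 3 of 16 unfolded protein response genes rose and 1 fell (median 0.01, or -0.19 under library totals). Of 19 hypoxia and glycolysis genes 3 rose and none fell (0.19, or -0.01 under library totals). Of 21 immediate early genes 3 rose and none fell (0.22, or 0.02 under library totals). The immediate early median was 0.10 without the second anti-PD-1 library and 0.10 without the second combination library. Of 15 heat shock and chaperone genes 1 rose and 3 fell (median -0.19), with 0 lower when the first or the third anti-PD-1 library, or the second or the third combination library, was left out. Of 19 cholesterol and fatty acid synthesis genes none rose and 1 fell (median -0.05), which is near the share of all genes tested. Without the second combination library the unfolded protein response, hypoxia and immediate early lists each kept 1 gene called higher. The hypoxia and glycolysis list also had 1 without the first or second anti-PD-1 library, and the immediate early list 1 without the second.

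Red cell transcripts were higher in combination. Of 12 erythroid genes 5 rose and none fell (median 1.19). The beta globin gene Hbb-bs went from 5369.8, 5129 and 6080.4 to 14155, 24005 and 9704 CPM (1.53 ± 0.28, edgeR adjusted p 0.00910), and Alas2, the first enzyme of haem synthesis in red cells, from 254, 216 and 299.5 to 603, 892 and 379 (1.28 ± 0.24, edgeR adjusted p 0.0103). Both had separate ranges, with the second combination library highest, and both held without any 1 library. The number called was 3 without the second and 8 without the third combination library. Haemoglobin and neutrophil genes were thus both higher in the combination libraries, and both cell types are carried in blood, as platelets are. Of 15 platelet and megakaryocyte genes 1 rose and none fell, with 4 fold changes positive and 11 negative. Their median was -0.06, or -0.52 without the second and the third combination libraries. They summed to 1959, 1929 and 1966 CPM with anti-PD-1 and 1192, 2147 and 1987 CPM in combination. The part of blood content in the neutrophil genes was not tested.

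Ribosomal protein and mitochondrially encoded genes also rose. Of 24 cytosolic ribosomal protein genes 21 rose and none fell (median 0.55, or 0.35 under library totals), and the fold changes of all 24 lay between 0.37 and 0.94, the highest in Rps27 from 440.2, 563 and 517 to 896, 1199 and 823 CPM (0.94 ± 0.17, edgeR adjusted p 0.00794). The calls depended on single libraries: 1, 2 and 1 were called without the first or second anti-PD-1 or the second combination library, 13 with the length and GC trend removed, 9 under library totals and 6 in a fit of only the 6 libraries. Of 14 mitochondrially encoded genes 7 rose and none fell (median 0.76, or 0.49 without the second and the third combination libraries), for example mt-Nd3, a subunit of complex I, from 64.0, 48.8 and 74.8 to 111, 154 and 105 CPM (0.98 ± 0.18, edgeR adjusted p 0.00936). That number was 1 without the first or second anti-PD-1 library or the second combination library, 2 without the third combination library, 3 with the length and GC trend removed and 2 in the fit of only the 6 libraries. The second combination library held both the largest mitochondrial share and the largest haemoglobin share. The part of these shares in the other results was not tested.

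Lists of lymphocytes and their products had few called genes. None was called among 22 T cell receptor and general T cell genes (median 0.03), 15 cytotoxic effectors (-0.11), 14 regulatory T cell genes (-0.02), 14 checkpoint receptors and ligands (-0.11), 22 plasma cell and antibody constant genes (0.13), 11 MHC class II genes (0.15) and 24 cell cycle genes (-0.11). Of 20 B cell genes 1 rose, Tnfrsf13c, the receptor for the survival factor BAFF, from 10.2, 7.54 and 9.13 to 11.4, 18.3 and 17.8 CPM (0.82 ± 0.20, edgeR adjusted p 0.0244); it missed the threshold when any 1 of 4 libraries, numbers 2 and 3 of each group, was left out (edgeR adjusted p up to 0.123). Of 22 genes of the interferon gamma response 1 fell, the guanylate-binding protein Gbp2b, from 2.39, 0.955 and 3.54 to 0.394, 0.576 and 0.462 CPM (-2.26 ± 0.51, edgeR adjusted p 0.0187), lost when the first or the third anti-PD-1 library, or the first or the second combination library, was left out (up to 0.0726). A share of 1 in 20 or 1 in 22 is near that of all genes tested (4.67% higher, 4.35% lower). The median of the interferon gamma list was -0.36, and its sign turned on single libraries. It was -0.63 without the first combination library and 0.27 without the second and the third. That list summed to 901, 982 and 1611 CPM with anti-PD-1 and 1494, 803 and 713 CPM in combination. Missing the threshold does not show that levels were alike. In all, 15 of the 60 lists had no called member, 23 had members called only higher, 10 only lower and 12 both.

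The control libraries give the level without either antibody. No gene was called between combination and control (0% of 18556, edgeR), with 1228 at an unadjusted p under 0.05, while DESeq2 called 61, limma-voom 0 and edgeR with no filter 11 of 31441. Between anti-PD-1 and control 2025 genes were called (10.9%). Both comparisons share libraries with the main one, so the following are levels and not further tests. Libraries did not overlap for 9.71% of genes between combination and control and for 32.5% between anti-PD-1 and control. Cxcl1 stood at 47.5, 44.1 and 53.7 CPM in the control libraries and differed by -0.24 ± 0.22 between combination and control and by -2.27 ± 0.24 between anti-PD-1 and control. Mt2 stood at 239, 266 and 201 CPM, with -0.01 ± 0.18 and -1.92 ± 0.19 in the same order. S100a9 stood at 813, 1024 and 753 CPM (-0.07 ± 0.21 and -1.40 ± 0.21). For these 3 genes the control values lay among or close to the combination values and above all anti-PD-1 values. On the lower side Pecam1 stood at 362, 286 and 351 CPM in the controls (-0.08 ± 0.14 and 0.73 ± 0.14) and Acer2 at 113, 92.2 and 97.4 (0.01 ± 0.11 and 1.11 ± 0.11), again beside the combination libraries. Not every gene had this pattern. Itga6 stood at 120.4, 139 and 125 CPM in the controls, between the 2 other groups (-0.63 ± 0.10 and 0.20 ± 0.10), as did Slc6a2 at 82.0, 52.4 and 58.6 (-0.68 ± 0.14 and 0.93 ± 0.14). Vwf, at 716, 554 and 556 CPM, was nearer to anti-PD-1 by its fold changes (-0.41 ± 0.12 and 0.21 ± 0.12). Only the first control library lay within the anti-PD-1 range for Vwf, and the others lay between the anti-PD-1 and the combination libraries. Ccl17, at 10.9, 13.6 and 8.98 CPM, lay below every combination library and above every anti-PD-1 library.

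**Figure D5:**
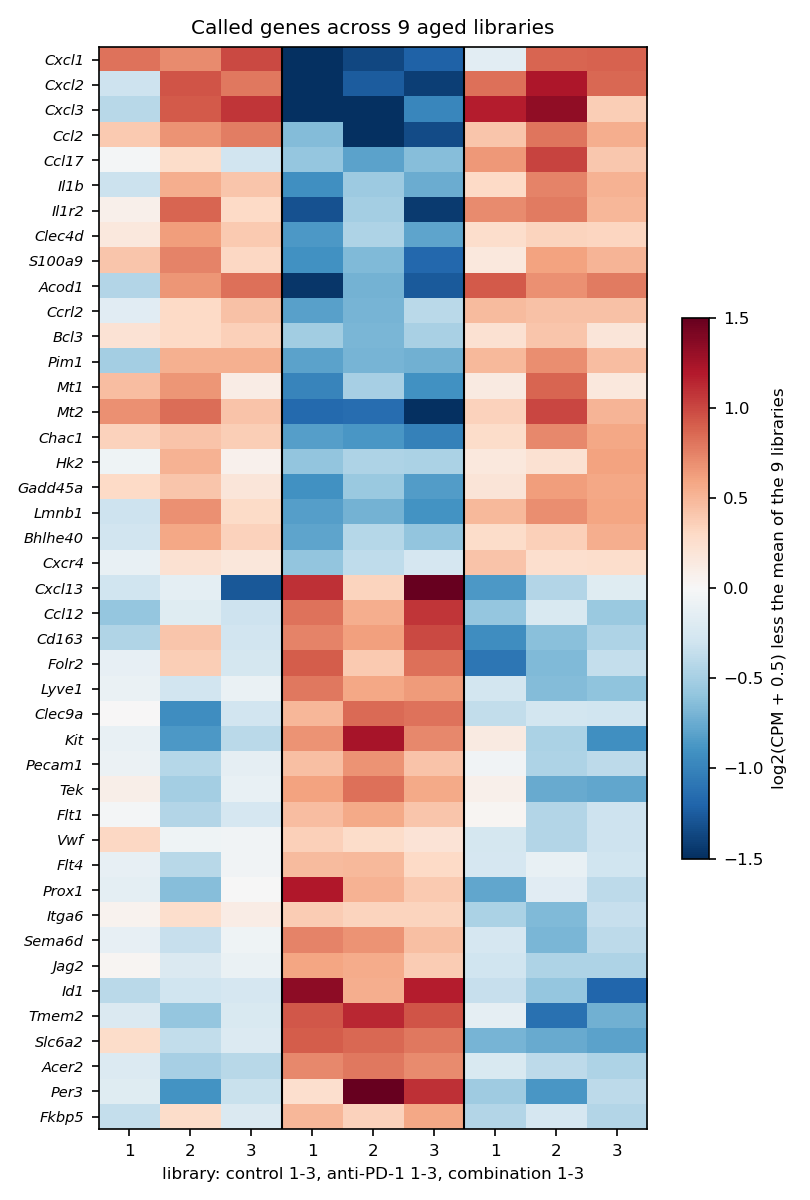
Rows are 43 called genes and columns the 9 libraries of 22-month-old mice, 3 control, 3 anti-PD-1 and 3 combination. Colour is log2(CPM + 0.5) less the mean of the row, and values past the ends of the scale take the end colours. The 3 anti-PD-1 columns differ from the other 6 in most rows, from Cxcl1 at the top to Fkbp5 at the bottom, and the rows Itga6 and Vwf differ less between anti-PD-1 and control.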

How the data were processed

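The deposited table holds raw read counts per gene, made by the authors from whole lung RNA. The submitters' processing notes name bcl2fastq 1.8.4, Trimmomatic, HISAT2, featureCounts 1.6.3 and the mm10 genome, with no role or order. The strand setting, the treatment of reads that match several genes and the annotation release are not given in the sources used here, so overlapping genes and close copies are uncertain.

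From these counts, edgeR 4.0.16 (R 4.3.3) fitted 4 group means over 12 libraries with TMM scaling, after its filter on low counts (minimum count 10, minimum total 15), and the combination group was compared with the aged anti-PD-1 group by the quasi-likelihood test. Sharing the fit gave 8 residual degrees of freedom, and an exact permutation test of 3 against 3 libraries cannot go below a p of 0.1. The script was tested on simulated data. Replicate numbers are labels only.

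The comparison and the 60 gene lists were chosen with earlier results of these data known. Genes named are a selection from a rule that always takes Il21r, Il21, Pdcd1, Cd274, Cxcl13, Cxcr5, Il2rg and Stat3. It adds called genes with the largest fold changes (average log2 CPM at or above 0, no overlap between groups) and those with the smallest adjusted p in each direction, leaving out predicted genes, antibody and T cell receptor segments and pseudogenes. From each list it adds up to 4 called members, and up to 2 uncalled ones where fewer than 2 were called. Sftpc, Rn18s-rs5 and Rn7sk are named as checks of the libraries.

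Alternatives were DESeq2 1.42.0, limma-voom (limma 3.58.1), other scalings and filters, a fit of only the 6 libraries, the replicate block and leaving out each library. Leaving out the second and the third combination libraries together and removing the dependence on exon length and GC content were chosen after seeing the data. Promoter sequences are from RefSeq (GRCm38.p6). Figures were drawn with matplotlib 3.10.9.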

Additional observations from a re-analysis of the deposited data

How the results depend on the processing

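Against 1674 genes called (866 higher, 808 lower), library totals in place of TMM scaling gave 3038 (361 higher, 2677 lower), and DESeq2 called 1329 higher of 2484 in all. Leaving out 1 library gave 260 to 1439 genes, 127 to 743 higher and 133 to 696 lower. Without the second and the third combination libraries, an alternative chosen after seeing the data, 7 genes were called, 7 higher and 0 lower. The cause of these shifts was not tested. Where libraries were left out, the number of samples was also smaller. Limma-voom (1608), DESeq2's size factors in edgeR (1645), no filter (1598), a mean of at least 1 CPM (1708) and the 6 libraries alone (1444) stayed within 1.5 times the count. With the replicate number as a block, 1455 genes were called, 4 in place of 7 mitochondrially encoded genes were, and the calls of Ccl8, Il17a and Jak3 were lost (edgeR adjusted p 0.0906, 0.0528 and 0.0659). Deviations of same-numbered libraries correlated at 0.0237, 0.0219 and -0.103, so the numbers were not taken as a pairing. All 1674 called genes kept their direction in each of these refits in which they were tested. Of single genes named, 4 that were not called changed sign in some alternative: Il21r was 0.00113 in limma-voom, 0.0292 with the replicate block, 0.0114 without the second and the third combination libraries and -0.17 to 0.22 when 1 library was left out, Stat3 was -0.0298 under library totals, Cd274 ran from -0.00438 to 0.559 and Cxcr5 from -0.337 to 0.0216 when 1 library was left out. The total counts, 16021877 to 22058620, leave genes such as Il21 with too few reads for the filter.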
